A study of Mus musculus with 6 samples.

Results

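Interferon-stimulated genes were followed through 6 RNA-seq libraries of cultured mouse cancer-associated fibroblasts (CAFs), the fibroblasts of a tumour's stroma. The set was given as 41 gene symbols. Of these, 38 had a mean of at least 1 CPM (a gene's reads relative to the library total, scaled for composition by the TMM method) over the 6 libraries, as had 12530 of the 55401 genes in the table. Mx1, Gbp5 and Cxcl10 fell below 1 CPM, with 32, 33 and 112 reads in all, and their levels are given by these counts only. The test between genotypes covered 37 of the 38 members among 13590 genes. Mx2, with 144 reads over all libraries, passed 1 CPM but not the count filter of the test.

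The CAFs came from tumours that grew after mouse tumour organoids were injected into the rectum, and were cultured on fibronectin-coated plates in medium with serum before RNA extraction. Hosts were wild-type (WT) or Thbs2KO mice, with 3 libraries each; Thbs2 encodes thrombospondin-2, a secreted protein of the extracellular matrix. The labels name no interferon or other treatment in any group, and give neither the hosts' age, sex and strain nor the type of the Thbs2 deletion. They also do not say whether replicates were separate mice or separate cultures. A p-value thus sets a difference only against the scatter of these libraries, and that scatter may be technical. All cells had been through culture, and levels in the tumours were not measured.

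Cells that bind type I interferon activate the receptor-bound kinases JAK1 and TYK2, which phosphorylate STAT2. STAT2 and IRF9 are subunits of the complex ISGF3, which binds the interferon-stimulated response element (ISRE) in front of its target genes. Interferon gamma acts through JAK1 and JAK2 on genes with a gamma-activated site (GAS), and IRF1 then carries the signal to further genes. The targets include nucleic acid sensors, RNA-degrading and RNA-binding antiviral proteins, the ubiquitin-like modifier ISG15 and large GTPases that attack intracellular pathogens, and many respond to both interferons. Stromal fibroblasts express the receptors of both types.

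Library totals lay between 19649066 and 24417464 expected counts, with reads in 17913 to 18568 genes. Thbs2 reached 2327, 4166 and 3705 CPM in the WT libraries, against 538, 425 and 412 CPM in those of Thbs2KO, a log2 fold change of -2.89 (SE 0.246, adjusted p = 0.00521 in the edgeR quasi-likelihood fit; two-sided exact permutation p = 0.1, the smallest that 3 against 3 allows). The fibroblast markers were present throughout, with Col1a1 between 11335 and 14757 CPM. In a principal component analysis of all tested genes, WT and Thbs2KO libraries lay on opposite sides of the first component (46.0% of the variance). On the second (27.9%), positive scores belonged to WT replicate 1 and Thbs2KO replicate 3 and negative scores to the other 4 libraries. Those 2 libraries thus stood apart, and the comparison of genotypes is given with and without them. No pair of libraries was as similar as Thbs2KO replicates 1 and 2 (chi-square over degrees of freedom of 3.78; other pairs 15.7 to 121.8). They still differed by more than sampling noise and were counted as 2 libraries.

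Many of the members share short elements in front of their start sites. A match to the ISRE core GAAANNGAAA, on either strand, lay between 250 bases before and 50 bases after the RefSeq start of 19 of the 31 listed genes with an entry (61.3%), against 4.0% of all 27025 genes with one and 3.7% of the tested genes. The GAS core TTCNNNGAA was matched in 9 of the 31 (29.0%), against 9.6% of all genes and 8.2% of tested genes. Matches of the 2 motifs may overlap, and a match describes letters, not binding. The stretches below lie before the start site, on the gene's own strand (GRCm38.p6, RefSeq), with matches to either motif in capitals. They show Isg15 and Ifit1, among the members that varied most, the twin genes Ifit3 and Ifit3b, the ISGF3 subunit Stat2, Bst2, and the gamma-type genes Irf1 and Igtp.
Isg15: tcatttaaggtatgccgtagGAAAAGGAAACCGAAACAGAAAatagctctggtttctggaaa
Ifit1: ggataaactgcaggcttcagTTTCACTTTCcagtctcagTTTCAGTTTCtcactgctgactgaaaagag
Ifit3: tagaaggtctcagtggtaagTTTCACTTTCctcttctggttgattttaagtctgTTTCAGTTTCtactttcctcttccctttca
Ifit3b: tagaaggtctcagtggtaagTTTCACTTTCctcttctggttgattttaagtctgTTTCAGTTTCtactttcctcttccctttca
Stat2: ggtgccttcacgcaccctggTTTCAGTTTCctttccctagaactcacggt
Bst2: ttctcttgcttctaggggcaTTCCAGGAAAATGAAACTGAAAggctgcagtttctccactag
Irf1: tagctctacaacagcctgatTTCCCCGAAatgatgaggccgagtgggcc
Igtp: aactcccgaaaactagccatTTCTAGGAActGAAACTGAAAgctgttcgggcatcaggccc
The Isg15 stretch, at chr4:156200855-156200916 on the minus strand, held 3 overlapping ISRE cores. Ifit1, at chr19:34640765-34640833 on the plus strand, held 2, and read TTTC where the motif stands in reverse complement. The 84 bases of Ifit3 (chr19:34583353-34583436) and Ifit3b (chr19:34607749-34607832), both on the plus strand, were identical. Stat2 (chr10:128270256-128270305, plus strand) held 1 ISRE core. In Bst2 (chr8:71537567-71537628, minus strand) a GAS core overlapped the first of 2 ISRE cores. Irf1 (chr11:53769904-53769952, plus strand) held a GAS core and Igtp (chr11:58199491-58199551, plus strand) one of each kind. Igtp is shown outside the rule for named genes, as a GTPase with both motifs.

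In all 41 listed genes the 2 highest libraries were WT replicate 1 and Thbs2KO replicate 3, 1 library of each genotype. Of all tested genes, 2595 (19.1%) had these 2 libraries on top. WT replicate 1 was the highest library for 30 of the 38 members and Thbs2KO replicate 3 for 8. Within each genotype the other 2 libraries lay closer to each other, though less close than for genes at large. The middle over the lowest library had a median ratio of 1.19 over the tested members in WT and 1.17 in Thbs2KO, against 1.10 and 1.09 over all tested genes. By role, this median ran from 1.02 to 1.41 in WT (widest in the GBP and IRG GTPases) and from 1.05 to 1.58 in Thbs2KO (widest in the IFIT family). The ratio of the highest to the middle library, here called the step, had a median of 4.67 in WT and 3.22 in Thbs2KO, against 1.09 in both over all genes.

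**Figure D1:**
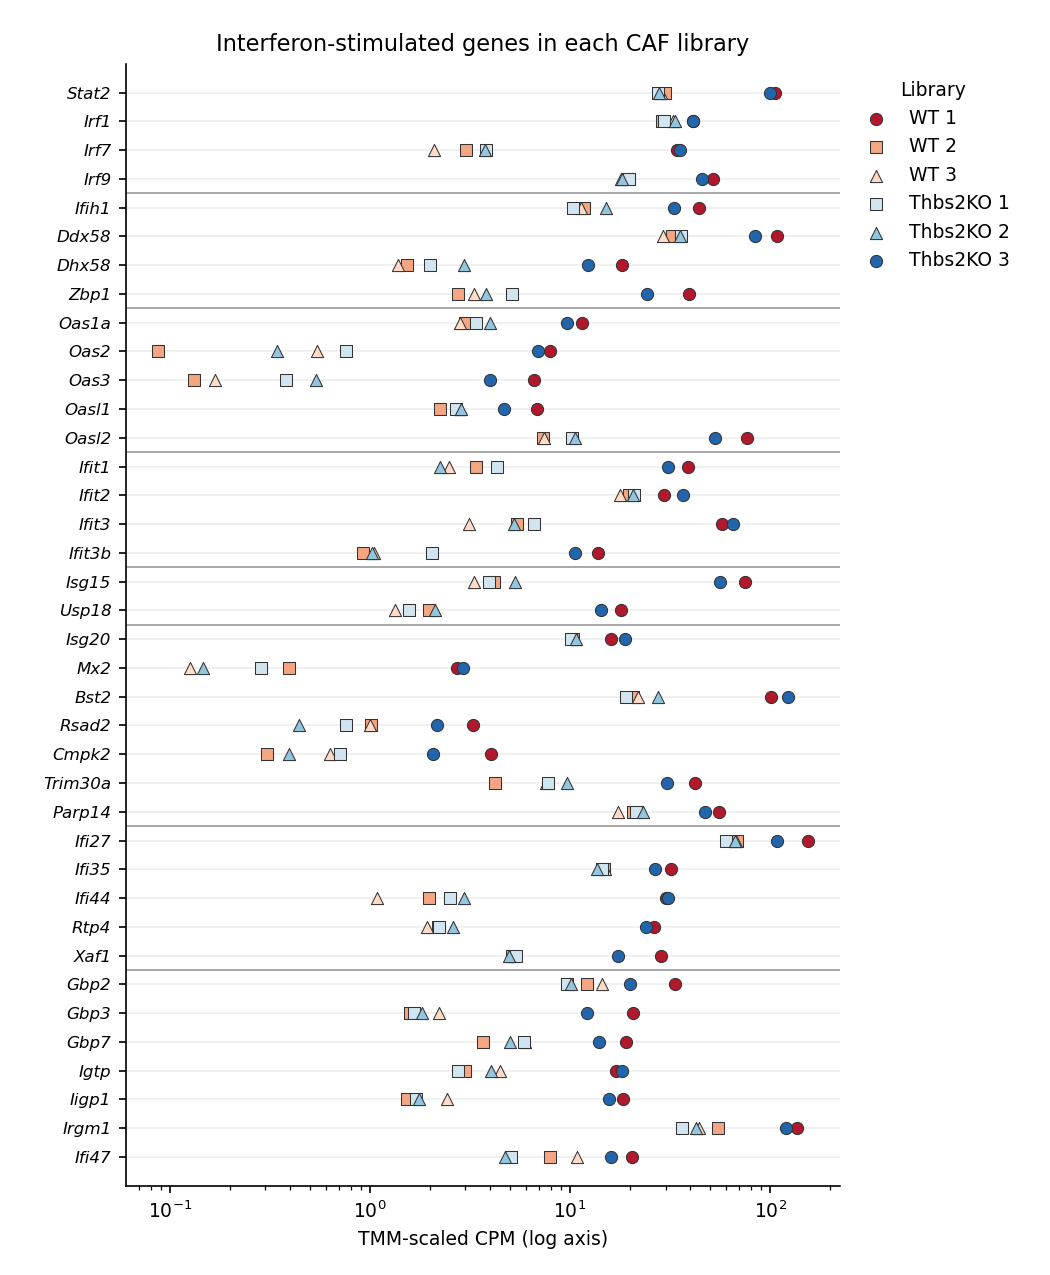
TMM-scaled CPM (log axis) of the 38 members in each of the 6 libraries, WT in reds and Thbs2KO in blues, with lines between groups of genes by role. WT replicate 1 and Thbs2KO replicate 3 (circles) are the 2 highest libraries in every row.

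Transcription factors of the response formed the first group. Stat2, a subunit of ISGF3, had 106, 29.8 and 28.3 CPM in WT and 27.4, 27.8 and 100.4 CPM in Thbs2KO, in the order of the replicate numbers used throughout. Irf9, its DNA-binding partner, reached 52, 19.8 and 17.9 CPM in WT and 19.6, 18.2 and 45.6 CPM in Thbs2KO. Both genes had 1 high library in each genotype. The 4 other libraries overlapped between genotypes for Irf9, while for Stat2 both lower WT libraries lay slightly above both lower Thbs2KO libraries. Irf7, the factor that amplifies type I interferon production, had 34.1, 3.02 and 2.1 CPM in WT and 3.78, 3.77 and 35.3 CPM in Thbs2KO; it lies outside the rule for named genes and was chosen after its values were seen. Its step was 11.3-fold in WT and 9.33-fold in Thbs2KO, against 3.54-fold and 3.61-fold for Stat2. Irf1, the factor of the gamma response, had the smallest step of all tested members in both genotypes, with 41.4, 28.7 and 32.7 CPM in WT and 29.6, 33.5 and 41.3 CPM in Thbs2KO and steps of 1.26 and 1.23. Exons of Gm17334 overlap Irf1 on the other strand over 135 bases, and the libraries do not mark strand.

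Sensors of foreign RNA and DNA followed the same order of libraries. Ddx58 (RIG-I, a sensor of RNA with 5′ triphosphates) had 108, 32.3 and 29 CPM in WT and 36, 35.5 and 83.8 CPM in Thbs2KO. Ifih1 (MDA5, a sensor of long double-stranded RNA) had 43.9, 11.7 and 11.4 CPM in WT and 10.4, 15.1 and 33.2 CPM in Thbs2KO. Zbp1, which binds nucleic acids in the Z form and can start necroptosis, had 39.2, 2.76 and 3.31 CPM in WT and 5.11, 3.82 and 24.2 CPM in Thbs2KO. The step from the middle to the highest library was 11.8-fold for Zbp1 in WT and 3.33-fold for Ddx58, and in Thbs2KO 4.74-fold and 2.33-fold. Dhx58 (LGP2), which modulates both RNA sensors, had ratios of 11.8 and 4.2. All 4 sensors thus stepped up by more than 2-fold within each genotype.

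The OAS family makes oligoadenylates that switch on RNase L, and Oasl1 and Oasl2 are its OAS-like relatives. Oasl2 had 76.3, 7.36 and 7.38 CPM in WT and 10.3, 10.6 and 53.2 CPM in Thbs2KO. Oas1a reached 11.5, 2.98 and 2.81 CPM in WT and 3.4, 3.96 and 9.63 CPM in Thbs2KO; its transcript shares 97.6% identity with Oas1g over 1861 bases, so reads of the pair are divided by estimate. Oasl1 had 6.8, 2.23 and 2.81 CPM in WT and 2.7, 2.84 and 4.69 CPM in Thbs2KO. In each of these genes the 2 high libraries were WT replicate 1 and Thbs2KO replicate 3. The lower Thbs2KO libraries lay above the lower WT libraries in Oasl2 and Oas1a and overlapped them in Oasl1. Oas2 and Oas3 had 16 reads or fewer in each of the lower libraries. Oas3 had 154, 3 and 4 reads in WT and 8, 11 and 81 in Thbs2KO, which gave a WT ratio of 39.5, the widest of the members. Oas2 had 185, 2 and 13 reads in WT and 16, 7 and 141 in Thbs2KO, with ratios of 14.6 and 9.11. All 5 genes lie on chromosome 5, where Oas1a, Oas2 and Oas3 are neighbours between positions 120730333 and 120907521.

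IFIT proteins bind viral RNA and block its translation. Ifit3 had 57.2, 5.43 and 3.14 CPM in WT and 6.57, 5.24 and 65.6 CPM in Thbs2KO and Ifit1 had 38.8, 3.37 and 2.47 CPM in WT and 4.3, 2.25 and 30.7 CPM in Thbs2KO. Ifit3b, the near-copy of Ifit3 (97.8% identity over 1700 bases), had 13.9, 0.92 and 1.05 CPM in WT and 2.03, 1.03 and 10.6 CPM in Thbs2KO, and the division of reads between the twins is uncertain. All 3 genes stepped up by more than 10-fold in WT and by 5.19-fold to 9.98-fold in Thbs2KO. Ifit2, on the same stretch of chromosome 19, had 29.6, 19.8 and 17.9 CPM in WT and 20.8, 20.6 and 36.9 CPM in Thbs2KO and stepped up by 1.49-fold in WT and 1.77-fold in Thbs2KO. Its 2 high libraries were the same, and Thbs2KO replicate 3 was the higher one for both Ifit2 and Ifit3.

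ISG15 is a ubiquitin-like protein joined to target proteins after interferon, and USP18 removes it and blocks the type I receptor. Isg15 had 75.2, 4.16 and 3.31 CPM in WT and 3.92, 5.33 and 56.1 CPM in Thbs2KO. Usp18 had 17.9, 1.97 and 1.34 CPM in WT and 1.56, 2.1 and 14.3 CPM in Thbs2KO. The Isg15 ratios of 18.1 in WT and 10.5 in Thbs2KO were among the widest of any member. Per kilobase of exon, Isg15 ranked 3rd of the members in WT replicate 1 (99.5 CPM per kb) and 2nd in Thbs2KO replicate 3 (74.2). In WT replicates 2 and 3 it ranked 7th and 10th, and in Thbs2KO replicates 1 and 2 it ranked 8th and 6th. Part of the Isg15 transcript (482 bases, 95.2% identity) resembles AC151275.1.

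Other antiviral effectors included a membrane tether, an ADP-ribosyl transferase and enzymes of nucleotide metabolism. Bst2 (tetherin), which holds budding virus at the cell surface, had 102, 20.6 and 21.8 CPM in WT and 19.1, 27.6 and 123 CPM in Thbs2KO. Parp14, a mono-ADP-ribosyl transferase, had 55.2, 20.5 and 17.3 CPM in WT and 21.4, 23.1 and 47.5 CPM in Thbs2KO. Thbs2KO replicate 3 was the higher of the 2 top libraries for Bst2 and WT replicate 1 for Parp14. Rsad2 (viperin), which makes a chain-terminating nucleotide, had 3.27, 1.01 and 1.01 CPM in WT and 0.757, 0.44 and 2.15 CPM in Thbs2KO. Its genomic neighbour Cmpk2, a nucleotide kinase, had 4, 0.307 and 0.629 CPM in WT and 0.709, 0.391 and 2.05 CPM in Thbs2KO. Isg20, an RNA exonuclease, and Trim30a, a ubiquitin ligase family member, spanned ratios from 1.52 to 5.54 in WT. Mx2 had 2.71, 0.394 and 0.126 CPM in WT and 0.284, 0.147 and 2.93 CPM in Thbs2KO and is annotated as a polymorphic pseudogene.

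Among the other induced members, Ifi27, a protein of mitochondrial and nuclear membranes, had 154, 68.3 and 67.4 CPM in WT and 59.9, 66.9 and 108 CPM in Thbs2KO. Per kilobase of exon it ranked 1st in the 4 lower libraries, at 40.8 to 46.6 CPM per kb, and stood behind Bst2 in both high libraries. Its step was small, at 2.25-fold and 1.62-fold. Ifi44 had one of the widest steps, from 30.3, 1.97 and 1.09 CPM in WT and 2.51, 2.94 and 30.8 CPM in Thbs2KO. Xaf1, an antagonist of an apoptosis inhibitor, had 28.5, 5.13 and 5.15 CPM in WT and 5.39, 4.94 and 17.4 CPM in Thbs2KO. Ifi35 had 31.9, 14.8 and 15 CPM in WT and 14.4, 13.6 and 26.5 CPM in Thbs2KO, with 290 bases of exon shared with Gm11626 on the other strand. Rtp4 stepped up by 12-fold and 9.22-fold.

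GBP and IRG proteins are GTPases that act on the vacuoles of intracellular pathogens. Irgm1, which regulates the other IRG proteins, had 136, 54.6 and 44 CPM in WT and 36.2, 42.6 and 119.6 CPM in Thbs2KO. Gbp2 had 33.4, 12.1 and 14.4 CPM in WT and 9.69, 10.1 and 19.8 CPM in Thbs2KO and Ifi47 (IRG-47) had 20.5, 7.93 and 10.8 CPM in WT and 5.06, 4.75 and 15.9 CPM in Thbs2KO. In all 3 genes the 2 lower WT libraries also lay above the 2 lower Thbs2KO libraries, as in Stat2, Rsad2, Ifi27 and Ifi35. The opposite order held in Irf7, Ddx58, Dhx58, Zbp1, Oas1a, Oas3, Oasl2, Ifit2, Trim30a, Parp14, Ifi44 and Rtp4. Gbp3, Gbp7, Igtp and Iigp1 had neither order. The share of either order over all tested genes was not counted, so neither is read as a trait of these members. Iigp1, on chromosome 18, stepped up by 7.56-fold and 8.88-fold, and Gbp3 by 9.32-fold and 6.75-fold. Igtp and Gbp7 stepped up by 4.54-fold and 2.37-fold in Thbs2KO and by 3.78-fold and 3.2-fold in WT.

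By role, the median step from middle to highest library was widest in the ISG15 system (13.6-fold in WT, 8.65-fold in Thbs2KO), the IFIT family (11.0 and 6.17) and the OAS family (10.3 and 5.01). Sensors followed at 7.77 and 3.26, the other interferon-induced members at 5.54 and 3.22, and other antiviral effectors at 3.96 and 2.87. GTPases (3.20 and 3.15) and transcription factors (3.08 and 2.97) stepped up by about the same factor in both genotypes. The step passed 2-fold in 33 of the 37 tested members in WT (89.2%) and in 30 in Thbs2KO (81.1%), against 4.30% and 3.60% of all tested genes. The members' median SD of log2 CPM over 3 libraries was 1.30 in WT and 1.07 in Thbs2KO, against 0.16 for all genes in each. These shares and medians describe the list and were not tested, and members are not replicates of a condition.

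Type I genes (30 members, 29 tested) were set against gamma-type genes (Irf1, Gbp2, Gbp3, Gbp7, Igtp, Iigp1, Irgm1 and Ifi47), a convention, since many answer to both interferons. Each gene's log2 CPM was centred on its mean over the 6 libraries. Type I genes averaged 1.75, -0.94 and -0.94 in WT and -0.64, -0.68 and 1.45 in Thbs2KO. Gamma-type genes averaged 1.39, -0.69 and -0.32 in WT and -0.78, -0.67 and 1.06 in Thbs2KO. Both classes therefore had the same 2 high libraries. The excess of type I over gamma-type was 0.36 in WT replicate 1 and 0.39 in Thbs2KO replicate 3. In the lower libraries it was -0.26 (WT replicate 2), -0.62 (WT replicate 3), 0.13 (Thbs2KO replicate 1) and -0.0048 (Thbs2KO replicate 2). The median step was 5.54-fold in WT and 3.61-fold in Thbs2KO for type I genes and 2.85-fold and 2.98-fold for gamma-type genes. Motifs were counted over listed genes with a promoter entry, here with Gbp5 and Cxcl10 among the gamma-type genes. A match to the ISRE core was found in 12 of 22 type I genes (54.5%) and in 7 of 9 gamma-type genes (77.8%). Shares for the GAS core were 22.7% and 44.4%. The tested members with an ISRE match (17) had median steps of 3.84 in WT and 3.61 in Thbs2KO, and the 12 without had 2.52 and 2.61. For the GAS core the order was the opposite, with 2.67 and 2.10 in the 8 tested members with a match and 5.54 and 3.22 in the 21 without. The other 8 tested members, with no promoter entry, had 10.4 and 5.76.

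**Figure D2:**
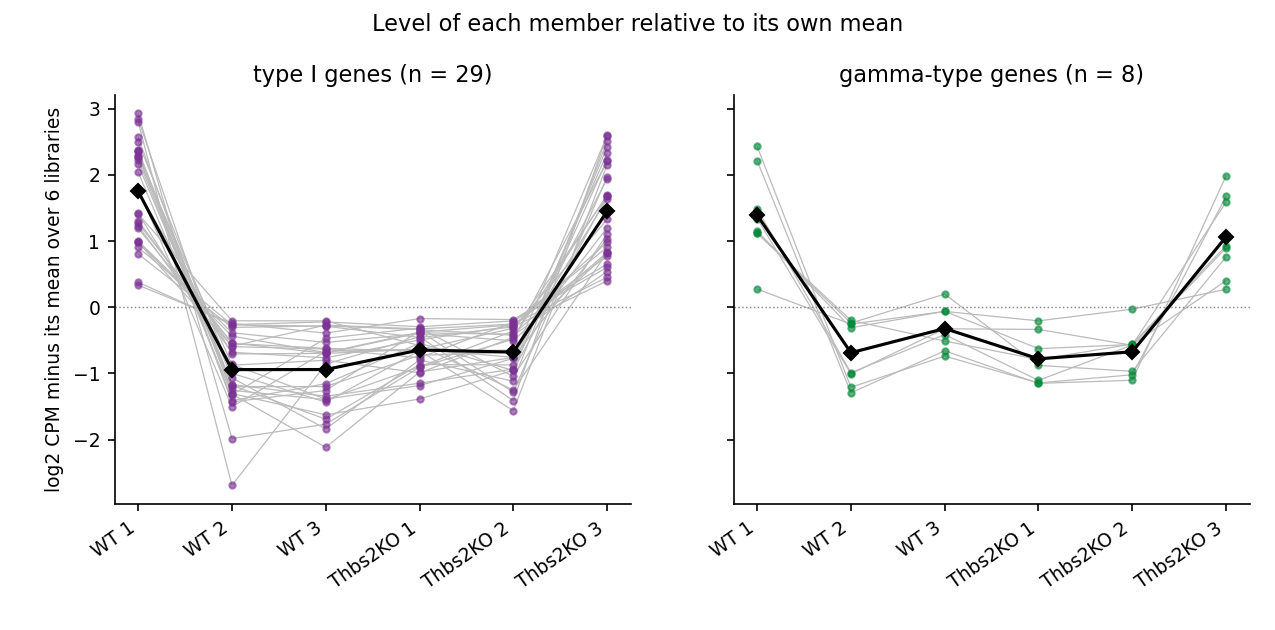
Centred log2 CPM of each tested member (thin lines and points) and the class mean (black diamonds) in the 6 libraries, for 29 type I and 8 gamma-type genes. In both panels WT replicate 1 and Thbs2KO replicate 3 lie above 0, and the class means of the other 4 libraries lie below it.

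Members with a large step in WT also had a large one in Thbs2KO. Across the 37 tested members, the log2 ratio of WT replicate 1 to the WT median and that of Thbs2KO replicate 3 to the Thbs2KO median had a Pearson r of 0.88 and a Spearman rho of 0.89. Over 13551 tested genes with a value for both ratios, the same pair of libraries gave 0.40 and 0.45. These are correlations across genes, which share the libraries and their depth and are not independent. Isg15, Oas3 and Irf7 lay at the high end in both genotypes and Irf1, Ifit2 and Isg20 at the low end. In all, 178 tested genes stepped up by more than 2-fold in both genotypes. In 150 of them the high libraries were WT replicate 1 and Thbs2KO replicate 3, and these held 29 members. Each other pairing of high libraries was found for 13 genes at most and held no member.

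**Figure D3:**
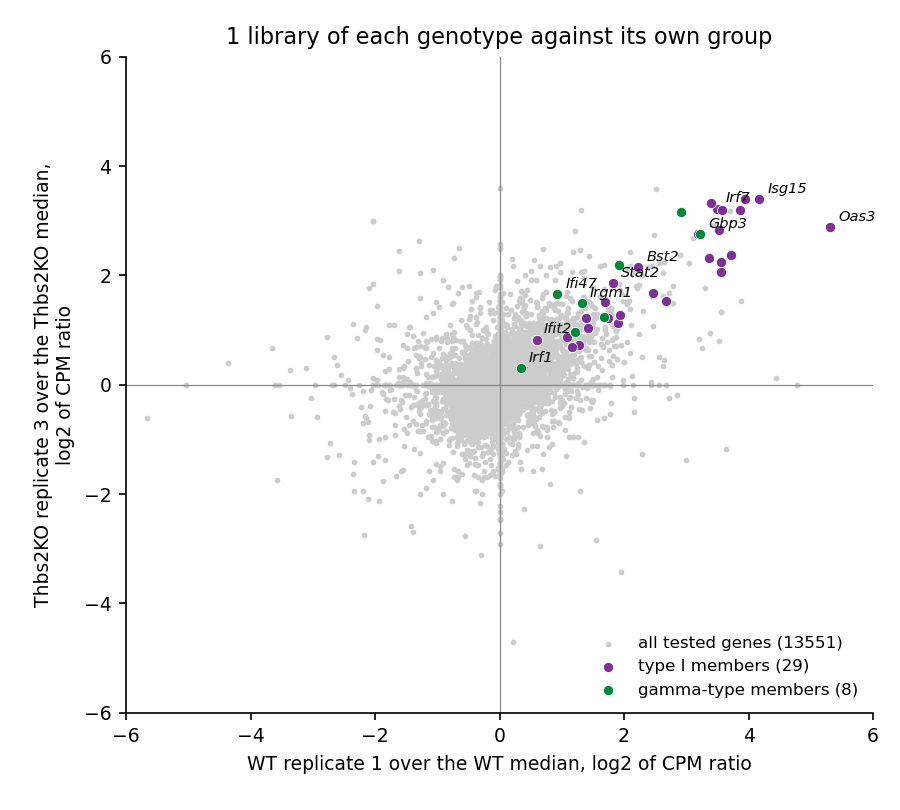
Each point is a gene: log2 ratio of WT replicate 1 to the WT median (horizontal) against log2 ratio of Thbs2KO replicate 3 to the Thbs2KO median (vertical). All 37 tested members (29 type I in purple, 8 gamma-type in green) lie above 0 on both axes, from Irf1 near the origin to Isg15 and Oas3.

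In the wider pathway, further induced genes had the order of libraries seen in the members, and the receptors and kinases had small steps. Of the 8 interferon ligands listed, 7 had no read in any library (Ifnb1, Ifna2, Ifna4, Ifne, Ifnk, Ifnl2 and Ifnl3). Ifng had 1 read, in Thbs2KO replicate 3. Of the Ifna family only Ifna2 and Ifna4 were listed, and its other genes were not looked at. The median step over the 8 tested receptor and kinase genes was 1.08-fold in WT and 1.11-fold in Thbs2KO. The 8 tested sensing and adaptor genes had median steps of 1.11 and 1.04, from which Tlr3, a receptor for double-stranded RNA, stood out with 12.7, 6.09 and 4.15 CPM in WT and 5.3, 5.38 and 7.97 CPM in Thbs2KO and steps of 2.08 and 1.48. The 6 genes of feedback and nucleic acid clearance had median steps of 1.20 and 1.21. In that list Adar, an RNA-editing enzyme, had steps of 1.64 and 1.78 and Socs1, a feedback inhibitor, 1.74 and 1.29. Tlr3, Adar and Socs1 were chosen after their values were seen, and all 3 had WT replicate 1 and Thbs2KO replicate 3 on top. Stat3, which serves mainly other cytokines, had 293, 275 and 277 CPM in WT and 249, 241 and 283 CPM in Thbs2KO. Of 31 further induced genes outside the member list, 30 were tested, and 29 of these had WT replicate 1 and Thbs2KO replicate 3 on top, with median steps of 2.20 and 1.93.

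**Figure D4:**
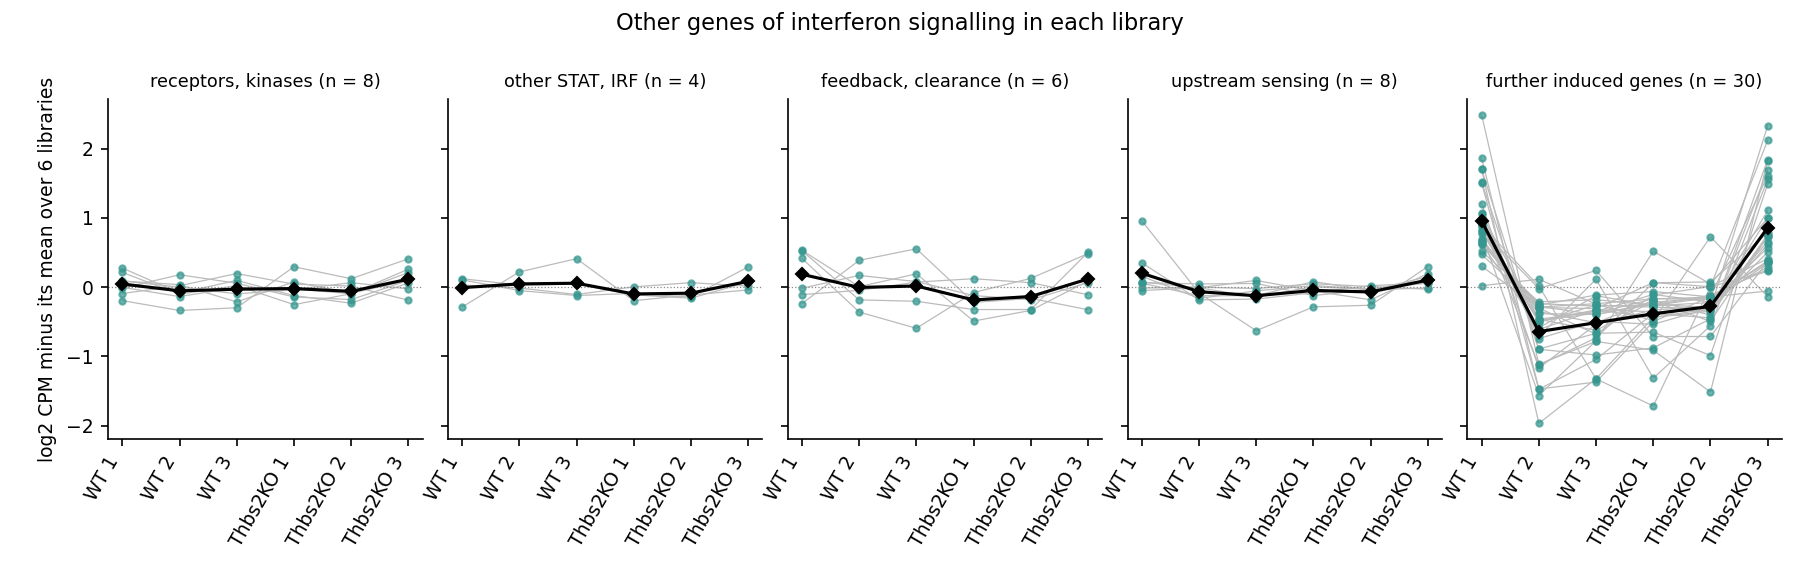
Centred log2 CPM of the tested genes of 5 pathway lists (thin lines and points) with the list mean (black diamonds) in the 6 libraries. The further induced genes average 0.96 in WT replicate 1 and 0.86 in Thbs2KO replicate 3, while receptors and kinases average 0.05 and 0.12.

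Thbs2KO and WT were then compared to ask whether the loss of thrombospondin-2 in the host went with another level of these genes in the CAFs. None of the 37 tested members passed an adjusted p of 0.05 in the edgeR quasi-likelihood fit over all genes, in which 1.09% of tested genes passed (75 higher and 73 lower in Thbs2KO). At an unadjusted p under 0.05 there were also 0 members, against 13.3% of tested genes. In DESeq2, 0 of the 24 members with an adjusted p passed, and 5.14% of all 13590 genes, with or without one. The other 13 members had no p-value in DESeq2, among them Isg15, Oas3 and Ifi44 with their wide steps. No member had groups that did not overlap, against 19.7% of tested genes. This restates the order of libraries given above: with 1 library of each genotype on top, the groups could not separate. The members' median log2 fold change, Thbs2KO minus WT, was -0.21, with 29 negative and 8 positive values from -0.66 to 0.24; the median over all genes was -0.00377. Their median standard error was 0.90 on the log2 scale, against 0.15 over all genes. With 3 libraries a group, even differences of several-fold could therefore go uncalled in many members.

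The smallest adjusted p among the members was that of Gbp2, with a log2 fold change of -0.59 (SE 0.461, adjusted p = 0.68). Ifi47 followed at -0.61 (SE 0.565, adjusted p = 0.744) and Rsad2 at -0.66 (SE 0.719, adjusted p = 0.789). On the positive side, Bst2 had 0.24 (SE 0.896, adjusted p = 0.952) and Ifit3 had 0.23 (SE 1.34, adjusted p = 0.971). Isg15 had -0.34 (SE 1.45, adjusted p = 0.96). The standard error exceeded the difference in each of these genes except Gbp2 and Ifi47. The sign of the list turned with 1 library. Without WT replicate 1, 35 of 37 members had positive values (median 1.15). Without Thbs2KO replicate 3, 0 of 37 did (median -1.32). Leaving out WT replicate 2 or WT replicate 3 left 1 positive value of 38, and leaving out Thbs2KO replicate 1 or 2 gave 26 and 25 positive values of 38. No member was called in any of these 6 fits.

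In a fit without both WT replicate 1 and Thbs2KO replicate 3, added after the data were seen and with 2 libraries a group, 1 of 36 tested members rose and 1 fell in Thbs2KO, against 4.78% and 6.37% of tested genes. Oasl2, an OAS-like protein, rose, with a log2 fold change of 0.50 (SE 0.123, adjusted p = 0.0477 in edgeR), from 7.36 and 7.38 CPM to 10.3 and 10.6 CPM. Ifi47, the GTPase, fell by 0.93 on the log2 scale (SE 0.189, adjusted p = 0.0263 in edgeR), from 7.93 and 10.8 CPM to 5.06 and 4.75 CPM. Over the type I members 23 of 28 values were positive, with a median of 0.22, and over the gamma-type members 2 of 8, with a median of -0.17. The difference between the classes was not tested. The Thbs2KO group of this fit consists of replicates 1 and 2, the most similar pair of libraries, and whether its calls depend on that likeness was not tested.

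**Figure D5:**
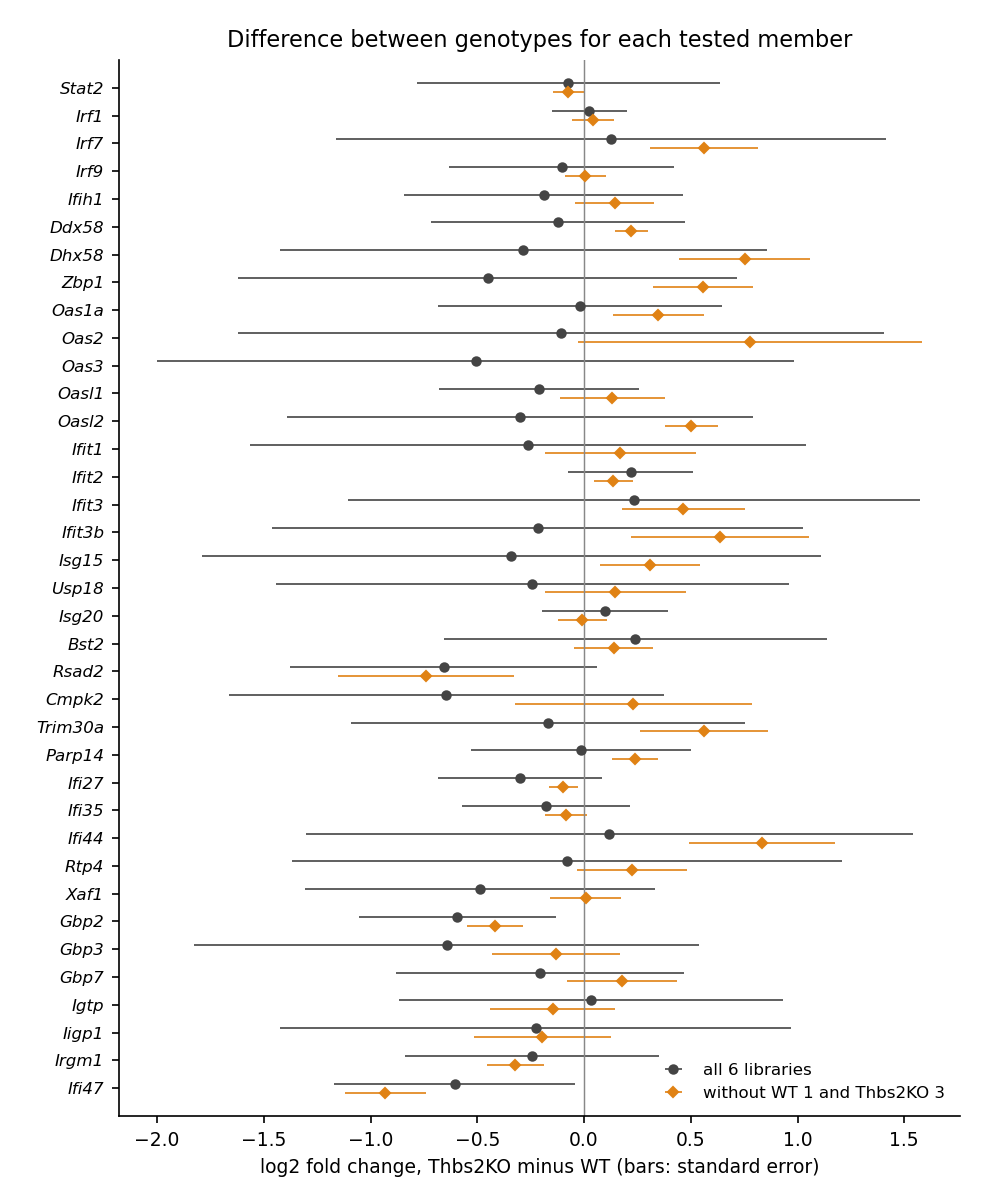
Log2 fold change, Thbs2KO minus WT, of the 37 tested members with standard errors, from all 6 libraries (grey circles) and without WT replicate 1 and Thbs2KO replicate 3 (orange diamonds, 36 members; Oas3 was not tested). With all libraries the error bars span 0 for every member but Gbp2 and Ifi47; with 4 libraries Oasl2 and Ifi47 passed the test.

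None of the 56 tested genes of the pathway lists was called between genotypes by edgeR with all libraries. Ifnar1, the signalling subunit of the type I receptor, came closest, with 71.9, 65.2 and 66.9 CPM in WT and 101, 89.5 and 109 CPM in Thbs2KO and groups that did not overlap. Its log2 fold change was 0.56 (SE 0.0923, edgeR adjusted p = 0.0560). It passed in DESeq2 (adjusted p = 7.1e-05), with RLE scaling (0.0489), upper-quartile scaling (0.0457), no filter (0.0221), without WT replicate 1 (0.0448) and without WT replicate 1 and Thbs2KO replicate 3 (0.00620). It did not pass with limma-voom (0.0601), a stricter filter (0.0610), no robust estimation (0.0556), the replicate block (0.198) or Thbs2KO replicates 1 and 2 summed (0.140), and leaving out any other single library gave an adjusted p of 0.0891 to 0.233. Its partner Ifnar2 had a log2 fold change of 0.10 (SE 0.111, adjusted p = 0.789), and Ifngr1, the ligand-binding subunit of the gamma receptor, had -0.20 (SE 0.121, adjusted p = 0.578). Among the 8 tested receptor and kinase genes, Ifnar1 was the one whose groups did not overlap, a trait of 19.7% of all tested genes. In the sensing and adaptor list, the groups of Mavs did not overlap either.

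Other pathway genes were given by the same rule of smallest p. Socs3, a feedback inhibitor of cytokine receptors, had 53, 81.7 and 91.7 CPM in WT and 53.6, 55.8 and 49.8 CPM in Thbs2KO and -0.51 (SE 0.196, adjusted p = 0.336); without WT replicate 1 its adjusted p was 0.0229. Trex1, a DNA exonuclease that clears cytosolic DNA, had -0.49 (SE 0.215, adjusted p = 0.397). Mavs, the adaptor of the RNA sensors, had -0.11 (SE 0.071, adjusted p = 0.598), and Ticam1, the adaptor of TLR3, had 0.12 (SE 0.0988, adjusted p = 0.69). Irf5 had -0.26 (SE 0.195, adjusted p = 0.663) and Stat3 had -0.13 (SE 0.0852, adjusted p = 0.615). In the further induced genes, Slfn2 had 38.5, 21.3 and 25.6 CPM in WT and 13.1, 13.2 and 28 CPM in Thbs2KO with -0.65 (SE 0.361, adjusted p = 0.52), and Gbp4 had 0.86 (SE 0.701, adjusted p = 0.698). Without WT replicate 1 and Thbs2KO replicate 3, 8 of the 56 pathway genes were called (14.3%), against 11.2% of all tested genes in that fit, a share near this background. With all 6 libraries, or with Thbs2KO replicates 1 and 2 summed, 0 were called. In the fit of 4 libraries, Ifnar1, Ifitm2, Gbp9, Ifi203 and Ifi204 rose, and Socs3, Samhd1 and Slfn2 fell. The rise of Ifi204, a sensor of DNA, was 0.99 on the log2 scale (SE 0.131, edgeR adjusted p = 0.00818).

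Ptprc (CD45) of leukocytes and Pecam1 and Cdh5 of endothelium were at or near 0 in all libraries. The 5 leukocyte markers (Ptprc, Laptm5, Coro1a, Cd52 and Itgb2) summed to 1.23 to 4.30 CPM in WT and 3.03 to 3.37 CPM in Thbs2KO, and Ptprc had 6 reads in all. Cd53, a leukocyte gene outside these lists, was chosen after its values were seen. It had 6.33, 0.92 and 1.42 CPM in WT and 5.96, 3.13 and 24.5 CPM in Thbs2KO, highest in the members' high libraries. The 9 macrophage and dendritic markers summed to 3.81 to 14.9 CPM in WT, highest in WT replicate 3, and 2.10 to 10.4 CPM in Thbs2KO, highest in Thbs2KO replicate 3. Of these, Siglech and Flt3 had no read and 2 reached 1 CPM. Of 6 T and NK markers, 5 had no read, and 4 B cell markers summed to at most 0.215 CPM. Epithelial markers (8) summed to 19.8 to 26.2 CPM in WT and 7.19 to 9.53 CPM in Thbs2KO, and endothelial markers (5) to 11.7 to 31.9 and 31.4 to 50.5 CPM. The endothelial sum came from Kdr (2.5, 26.3 and 10.6 CPM in WT and 45, 28 and 21.5 CPM in Thbs2KO) and Tek, while Pecam1, Cdh5 and Emcn had 26, 30 and 16 reads in all. In bulk RNA, fewer cells of a type and less RNA per cell cannot be told apart.

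The 10 fibroblast markers summed to 38886, 33832 and 37198 CPM in WT and 34934, 33390 and 52573 CPM in Thbs2KO. Decorin (Dcn), a matrix proteoglycan, had 323, 214 and 199 CPM in WT and 352, 275 and 1004 CPM in Thbs2KO, and Postn, a matricellular protein, had 9012, 5164 and 5805 CPM in WT and 5988, 5674 and 12989 CPM in Thbs2KO. Of the 10 markers, 10 were highest of Thbs2KO in replicate 3. In WT, replicate 1 was the highest for 6, Dcn and Postn among them, and the lowest for 4 (Col1a1, Col1a2, Lum and Fap). For 3 markers, WT replicate 1 and Thbs2KO replicate 3 were the 2 highest of all libraries. A list of 12 cell cycle genes, added after the data were seen, summed to 1009, 1326 and 1426 CPM in WT and 1402, 1461 and 863 CPM in Thbs2KO, lowest in the libraries where the members were highest. The 38 members summed to 1545, 412 and 403 CPM in WT and 398, 429 and 1319 CPM in Thbs2KO. Mitochondrial transcripts made up 1.22%, 1.32% and 1.30% of WT counts and 1.25%, 1.26% and 0.974% of Thbs2KO counts. The part of these properties in the members' levels was not tested.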

How the data were processed

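RNA was sequenced from 3 WT and 3 Thbs2KO CAF samples with an unstranded TruSeq v2 kit, per the labels' protocols. The authors deposited unscaled expected counts from RSEM, which divides a read that fits several genes between them. Tools named in the submitters' processing notes were Trimmomatic 0.39, RSEM and STAR 2.7.3a, with build mm10; the annotation is not given in the sources used here. Library totals were 19649066 to 24417464, and 3.80% to 3.88% of values per library were not whole; values were rounded for testing.

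Genes passing filterByExpr (13590 of 55401) were scaled with TMM and tested with the robust quasi-likelihood test of edgeR 4.0.16 in R 4.3.3. Genotype was the sole covariate, and p-values were adjusted by Benjamini-Hochberg over all tested genes, with a threshold of 0.05. Every adjusted p without another tool's name is from that fit, and standard errors were derived from its F statistic. Centred levels are log2 CPM with a prior count of 2. DESeq2 1.42.0 and limma 3.58.1 (voom) served as alternatives, with other scalings and filters, a replicate block and each library left out. Gene positions and exon lengths came from GENCODE M21 (GRCm38), promoters from RefSeq (GRCm38.p6), and near-copies (at least 95% identity) from BLAST+ 2.17.0. The testing steps were tested on simulated data.

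Members, roles, classes and pathway lists were chosen with earlier results of these data known. Named members were, in each role, the 2 with the highest mean CPM and the 2 with the smallest p, and the 3 with the largest SD within each genotype; others are named as chosen later or in ranges. In pathway lists, the 2 genes with the smallest p were named, and all listed ligands. 1 gene of these lists is not reported here and is left out of their counts.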

Additional observations from a re-analysis of the deposited data

How the results depend on the processing

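The all-gene count of 148 calls became 699 with DESeq2, 245 without a filter, 30 with the replicate block, 1519 without WT replicate 1 and Thbs2KO replicate 3, 40 with Thbs2KO replicates 1 and 2 summed, and 38 to 397 with 1 library left out (without Thbs2KO replicate 1 and without WT replicate 1). The count of 0 called members held in every alternative run but the fit without WT replicate 1 and Thbs2KO replicate 3, which called 2. The pathway lists went from 0 calls to 1 with RLE scaling, upper-quartile scaling, DESeq2 and no filter (Ifnar1 each time), to 0 to 2 with 1 library left out, and to 8 without WT replicate 1 and Thbs2KO replicate 3. The spread within each genotype and the difference of type I from gamma-type genes moved by less than the replicate SD under RLE or upper-quartile scaling and a prior count of 0.5. Replicate SD was large in the members, which makes this a loose limit. Replicate numbers are shared by the genotypes, and the labels do not say whether they pair the libraries. Deviations from the group means correlated at -0.29, 0.17 and -0.33 over numbers 1, 2 and 3. Between WT replicate 1 and Thbs2KO replicate 3 they correlated at 0.40. These values cannot decide whether the numbers mark pairs, since 1 outlying library in each group weighs on all of them. With the replicate block, 0 members were called and 22 of 37 had positive values.

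Without WT replicate 1 and Thbs2KO replicate 3, 21 of 36 members had the other sign. Among the 27 tested members and the pathway genes that the rule names, signs of log2 fold changes turned as follows, none of them past the threshold with all 6 libraries; other members are not listed. With WT replicate 1 and Thbs2KO replicate 3 left out, they were Cmpk2 0.23, Ddx58 0.22, Ifih1 0.14, Ifit1 0.17, Irf9 0.0061, Isg15 0.31, Oas1a 0.35, Oas2 0.78, Oasl1 0.13, Oasl2 0.50, Parp14 0.24, Usp18 0.15, Xaf1 0.0081, Zbp1 0.56. With limma-voom, they were Ddx58 0.026, Isg15 0.053, Oas1a 0.14, Oas2 0.65, Oas3 0.74, Oasl2 0.16, Parp14 0.088, Zbp1 0.13. With the replicate block, they were Ddx58 0.034, Isg15 0.18, Oas1a 0.16, Oas2 0.58, Oas3 0.70, Oasl2 0.24, Parp14 0.091, Usp18 0.015, Zbp1 0.18. With Thbs2KO replicates 1 and 2 summed, they were Ddx58 0.081, Ifih1 0.033, Ifit1 0.17, Irf9 0.10, Irgm1 0.018, Isg15 0.12, Oas1a 0.20, Oas2 0.34, Oasl2 0.057, Parp14 0.16, Stat2 0.22, Usp18 0.16. With no filter, they were Parp14 0.00074. With 1 library left out in turn, they ranged as follows: Bst2 -1.04 to 1.42, Cmpk2 -1.57 to 1.15, Ddx58 -0.66 to 0.75, Ifi27 -0.61 to 0.21, Ifi35 -0.55 to 0.29, Ifi44 -2.03 to 2.98, Ifih1 -0.81 to 0.76, Ifit1 -2.18 to 2.09, Ifit2 -0.11 to 0.47, Ifit3 -1.89 to 2.59, Irf1 -0.12 to 0.18, Irf9 -0.66 to 0.56, Irgm1 -0.99 to 0.42, Isg15 -2.57 to 2.54, Oas1a -0.64 to 0.97, Oas2 -2.37 to 3.04, Oas3 -2.32 to 3.39, Oasl1 -0.51 to 0.43, Oasl2 -1.54 to 1.74, Parp14 -0.48 to 0.70, Rsad2 -1.55 to 0.15, Stat2 -0.98 to 0.84, Usp18 -1.95 to 1.85, Xaf1 -1.32 to 0.84, Zbp1 -1.76 to 1.86. The cause of these changes was not tested beyond the libraries left out. Read counts limit Oas2, Oas3, Rsad2 and Cmpk2, with 364, 261, 192 and 180 reads in all.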

Other observations

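Beyond the members and the pathway lists, 111 tested genes stepped up by more than 2-fold from the middle to the highest library in both genotypes with WT replicate 1 and Thbs2KO replicate 3 as the high libraries, and 57 of these had a mean of at least 5 CPM. The genes named here were chosen from them after their values were seen. Some belong to families of induced genes: Slfn8 had 12.5, 2.72 and 2.47 CPM in WT and 2.55, 3.91 and 13.7 CPM in Thbs2KO, Trim30d had 27, 3.46 and 4.36 CPM in WT and 5.67, 7.88 and 24.4 CPM in Thbs2KO, and H2-T23, a non-classical MHC class I gene, had 77.7, 19.6 and 19.6 CPM in WT and 24.4, 21.9 and 70.4 CPM in Thbs2KO. Others encode chemokines. Ccl8, which attracts monocytes, had 57.6, 5.08 and 13.4 CPM in WT and 17.5, 16.1 and 94.1 CPM in Thbs2KO, and Ccl11 (eotaxin) had 19.4, 1.01 and 3.39 CPM in WT and 7.38, 7.73 and 92.4 CPM in Thbs2KO. Several encode matrix and secreted proteins of fibroblasts: Mgp, the matrix Gla protein, had 73.6, 30 and 7.59 CPM in WT and 82.5, 88.7 and 490.2 CPM in Thbs2KO, Dpt (dermatopontin) had 16.2, 3.55 and 6.29 CPM in WT and 11.7, 10.8 and 49.8 CPM in Thbs2KO and Selenop, a selenium carrier, had 57.1, 23 and 17.3 CPM in WT and 44.4, 34.9 and 186 CPM in Thbs2KO. In Mgp, Dpt and Selenop the level in Thbs2KO replicate 3 was above that in WT replicate 1. Ace, the angiotensin-converting enzyme, had 71.8, 8.19 and 11.7 CPM in WT and 19.7, 17.4 and 81.1 CPM in Thbs2KO, close to the members' pattern. These values are a description of the libraries, and no cause of the shared pattern was tested.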
